A study of Mus musculus with 10 samples.

Results

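The Spsb genes encode the SPRY domain and SOCS box proteins, a family of adaptors for a ubiquitin ligase. The family was taken by gene symbol, which gave 4 genes, Spsb1, Spsb2, Spsb3 and Spsb4, of the 36401 genes listed for each library. Spsb1 was singled out because it was already known to be higher in every library of mice with a sleeve gastrectomy than in every library of sham-operated mice, that is, it was chosen by its levels in these same libraries, so its own difference is described here and not tested. The questions asked were whether its 3 paralogs followed it and how it related to Nos2, the gene of one of its protein targets.

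In an SPSB protein, the SPRY domain binds a short peptide of the target and the SOCS box binds Elongin B and Elongin C, which bring in Cullin-5 and its RING partner Rnf7. The assembled ligase adds ubiquitin to the target, which is then degraded by the proteasome. The best known target is the inducible nitric oxide synthase made from Nos2, which SPSB1, SPSB2 and SPSB4 bind and SPSB3 does not bind in the same way. In the gut, Nos2 is switched on by microbial and inflammatory signals and its enzyme makes nitric oxide from arginine. Only RNA was measured here, so the values say nothing of the amount of any SPSB protein or of the synthase.

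The tissue was terminal ileum of male C57Bl6 mice made obese by a 60 kcal % fat diet for 6 weeks before surgery at 8 weeks of age. The 5 VSG libraries came from mice with a vertical sleeve gastrectomy, in which surgeons cut the stomach down to a narrow tube, and these mice then ate ad libitum. The 5 SPF libraries came from mice with sham surgery that were pair-fed to the VSG mice, so the operation and the feeding regime cannot be told apart. All mice received liquid Osmolite for 4 days around the operation, and about 8 weeks later they were fasted overnight, given 0.5 mL Osmolite by gavage and sampled after 1 hour. The labels name a mouse as the source of each library but do not say that the 5 mice of a group were handled separately. The p-values for group differences set a difference against the spread between these libraries.

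Total estimated counts were 15364651 to 30401105 per VSG library and 16848364 to 34058181 per SPF library. VSG 2, SPF 2 and SPF 4 stood apart in regional markers. In them the upper small intestine transcription factor gene Gata4 was at 109.5 to 183.5 CPM, which are counts scaled to the size of the library, against 1.72 to 6.28 CPM in the other 7 libraries, and the ileal bile acid binding protein gene Fabp6 was at 39.0 to 62.1 CPM, against 2558 to 6112 CPM. Over the 8 listed upper small intestine markers, the mean log2 CPM was 4.43 to 6.47 in these 3 libraries and 1.41 to 2.35 in the others. Lct, Adh6a, Gip and Onecut2 were also higher in all 3, while Pdx1 and Cybrd1 overlapped. Slc40a1 went the other way, at 3.68 to 13.6 CPM against 35.8 to 98.3 CPM. The 3 libraries therefore went against the ileal label by Gata4, Fabp6 and this mean. Values without them are given beside the members, Nos2, the correlations and the gene lists. In edgeR's quasi-likelihood test, 0 of 15678 genes passed an adjusted p of 0.05, which is 0% of genes tested, and 595 genes, or 3.8%, had an unadjusted p under 0.05, with 1.88% of genes higher and 1.91% lower in VSG. DESeq2 called 11 genes, limma-voom 0 and limma-voom with sample weights 1.

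Promoter sequences of all 4 Spsb genes were found in RefSeq (GRCm38.p6). The windows of Spsb1 and Spsb3 are printed because Spsb1 is the member that stood apart between the groups and this Spsb3 window has the lowest share of G and C in the family. Each line gives 200 bases that end 51 bases before the annotated start, 5′ to 3′ on the gene's strand, for Spsb1 at chr4:149955057-149955256 on the minus strand and for Spsb3 at chr17:24886393-24886592 on the plus strand. Capitals mark matches on either strand to the GC box GGGCGG or to the CCAAT box.
Spsb1: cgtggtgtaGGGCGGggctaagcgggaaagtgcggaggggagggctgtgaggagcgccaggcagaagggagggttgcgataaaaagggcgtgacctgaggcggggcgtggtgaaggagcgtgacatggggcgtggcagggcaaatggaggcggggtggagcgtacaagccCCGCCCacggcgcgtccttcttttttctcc
Spsb3: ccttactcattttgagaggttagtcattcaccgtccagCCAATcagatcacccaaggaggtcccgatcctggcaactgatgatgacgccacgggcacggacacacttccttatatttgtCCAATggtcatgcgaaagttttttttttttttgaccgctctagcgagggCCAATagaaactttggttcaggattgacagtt

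The Spsb1 window held 2 GC boxes, no CCAAT box and 17 CpG dinucleotides at 66.0% G and C. The printed Spsb3 window held 3 CCAAT boxes, no GC box and 8 CpG dinucleotides at 46.5% G and C. Spsb3 has 4 annotated starts, and the windows of the others held 0, 3 and 1 CCAAT boxes and no GC box at 58.5, 49.0 and 53.5% G and C. The Spsb4 window held 1 GC box and 21 CpG dinucleotides at 68.5% G and C, and the windows at the 2 annotated starts of Spsb2 held 0 and 1 GC boxes. Over the same window of 32851 mouse promoters, 24.6% held GGGCGG and 28.4% held CCAAT on either strand. None of the 4 genes had the letters TATAAA, found in 9.14% of the same windows, in any of its windows. The windows end 51 bases before the start, so these letters were not searched for nearer to it. Neither value therefore says whether a promoter has a TATA box. A match to the NF-kB consensus, found in 5.71% of promoters, lay only in 1 of the 4 windows of Spsb3. A match is a description of the letters and not of a bound factor.

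Spsb1 (ENSMUSG00000039911) was the member with the higher level after sleeve gastrectomy. It was at 36.6, 36.9, 40.7, 38.6 and 46.2 CPM in VSG libraries 1 to 5, against 24.0, 29.1, 21.7, 26.6 and 21.2 CPM in SPF libraries 1 to 5. The lowest VSG library lay above the highest SPF library, and this gap is what chose the gene. Its means were 39.8 ± 3.94 CPM in VSG and 24.5 ± 3.35 CPM in SPF (SD, n = 5 each). The log2 fold change was 0.70 ± 0.12 (SE; 95% interval 0.43 to 0.97), or 1.62-fold. Without VSG 2, SPF 2 and SPF 4 the log2 fold change was 0.86. Every VSG library above every SPF library was seen for 40 of 15678 genes, or 0.255% of those tested. The levels of Spsb1 rest on 478 to 1155 estimated counts per library. Its exons share 103 bases with the opposite-strand transcript Gm13070, which had 5 to 25 counts per library. In bulk tissue, fewer cells of a type and less RNA per cell cannot be told apart, for Spsb1 as for every gene here.

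**Figure D1:**
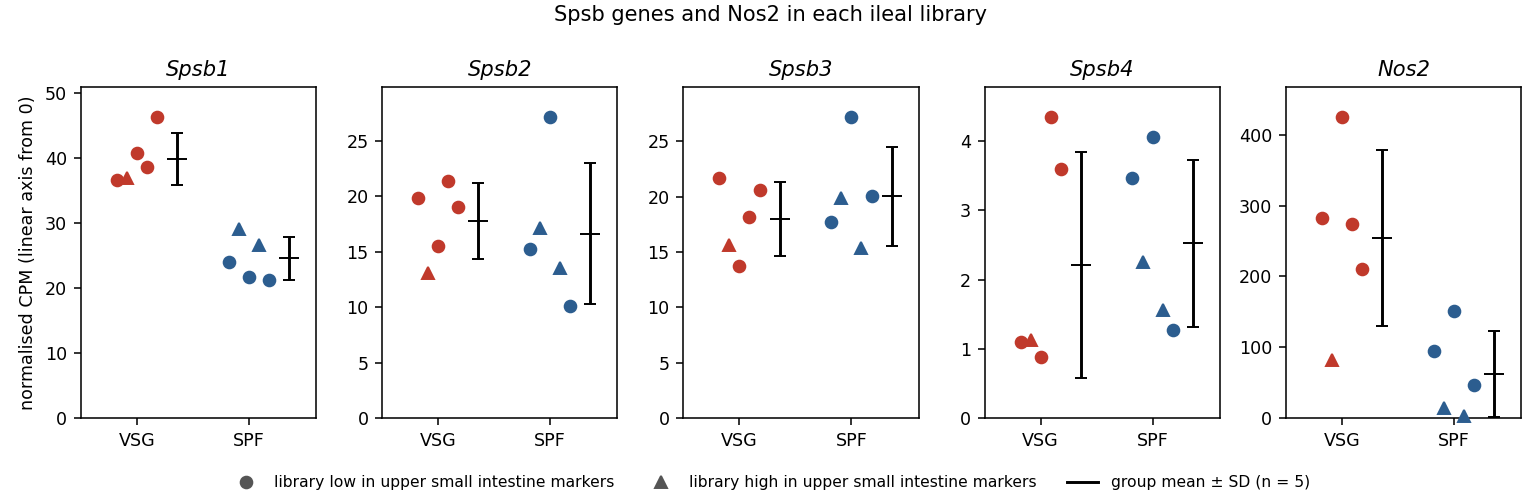
Normalised CPM of Spsb1, Spsb2, Spsb3, Spsb4 and Nos2 (linear axes from 0) in each VSG and SPF library, with the group mean ± SD (n = 5) beside the points and triangles for the 3 libraries with high upper small intestine markers. Only for Spsb1, the gene chosen for it, do all VSG points (36.6 to 46.2 CPM) lie above all SPF points (21.2 to 29.1 CPM); the groups overlap for the other 4 genes.

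Spsb2, a second adaptor of the inducible synthase, did not show this pattern. Spsb2 (ENSMUSG00000038451) was at 19.8, 13.0, 15.5, 21.4 and 19.0 CPM in VSG libraries 1 to 5, against 15.3, 17.1, 27.1, 13.5 and 10.1 CPM in SPF libraries 1 to 5. The VSG values lay inside the SPF range, whose highest and lowest values came from SPF 3 and SPF 5. The means were 17.8 ± 3.39 CPM in VSG and 16.6 ± 6.39 CPM in SPF (SD, n = 5 each), with a log2 fold change of 0.10 ± 0.25 (SE; 95% interval -0.45 to 0.64; edgeR adjusted p = 0.985). SPF 3 and SPF 5 set this value: it was 0.35 without SPF 3 and -0.04 without SPF 5. It was 0.12 without the 3 libraries that stood apart. The exons of Spsb2 share 34 bases with the opposite-strand gene Tpi1, an abundant glycolytic enzyme gene at 481.4 ± 65.4 CPM in VSG and 527.7 ± 160.7 CPM in SPF.

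Spsb3, the most divergent member, known in other work as an adaptor for the transcription factor SNAI1, did not pass the test either. Spsb3 (ENSMUSG00000024160) was at 21.7, 15.6, 13.7, 18.2 and 20.6 CPM in VSG libraries 1 to 5, against 17.7, 19.9, 27.2, 15.3 and 20.1 CPM in SPF libraries 1 to 5. The groups overlapped, with the highest value again in SPF 3. The means were 17.96 ± 3.34 CPM in VSG and 20.0 ± 4.44 CPM in SPF (SD, n = 5 each), with a log2 fold change of -0.16 ± 0.18 (SE; 95% interval -0.56 to 0.24; edgeR adjusted p = 0.977). Without SPF 3 it was -0.01, and without VSG 2, SPF 2 and SPF 4 it was -0.22. Of the 2719 exon bases of Spsb3, 1694 are shared with Eme2 on the opposite strand. Eme2 was at 29.2 ± 3.68 CPM in VSG and 31.3 ± 5.63 CPM in SPF, and since the sources used here do not state a stranded kit, reads of these genes in the shared bases cannot be told apart.

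Spsb4 was the lowest member and the most variable. Spsb4 (ENSMUSG00000046997), whose product also binds the inducible synthase, was at 1.09, 1.13, 0.878, 4.35 and 3.601 CPM in VSG libraries 1 to 5, against 3.48, 2.26, 4.06, 1.56 and 1.27 CPM in SPF libraries 1 to 5. Both groups held libraries near 1 CPM and libraries near 4 CPM. The values rest on 13 to 128.8 estimated counts per library. The means were 2.21 ± 1.64 CPM in VSG and 2.53 ± 1.21 CPM in SPF (SD, n = 5 each), with a log2 fold change of -0.18 ± 0.51 (SE; 95% interval -1.30 to 0.94; edgeR adjusted p = 0.988). Its direction rested on single libraries: the log2 fold change was -0.58 without VSG 4 and 0.06 without SPF 3. Without the 3 libraries that stood apart it was -0.22.

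A set of 8 B cell and lymphoid follicle markers also varied widely between libraries. All 8 passed the filter on low counts, 6 higher and 2 lower in VSG, with 0 passing the edgeR test, 0 at an unadjusted p under 0.05 and 0 called by DESeq2 or limma-voom. Their summed level was 18.7, 159.6, 34.6, 214.5 and 155.0 CPM in VSG libraries 1 to 5, against 150.6, 11.1, 268.7, 17.0 and 88.5 CPM in SPF libraries 1 to 5. VSG 4, VSG 5, SPF 1 and SPF 3 were high in both. VSG 2 was high in the markers and low in Spsb4, SPF 5 had the middle marker sum of its group and the lowest Spsb4, and SPF 2 had the lowest marker sum and the middle Spsb4 value of its group. Without VSG 2, SPF 2 and SPF 4 all 8 markers were lower in VSG. None of the 8 markers was at 0 in all libraries, and their part in the Spsb4 values was not tested.

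None of Spsb2, Spsb3 and Spsb4 passed the edgeR test, had an unadjusted p under 0.05 in it, or was called by DESeq2, limma-voom or limma-voom with sample weights. A difference between Spsb1 and its paralogs was not tested, since Spsb1 was chosen for its value.

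Set per kilobase of exon, so that genes can be compared, Spsb2 had the highest mean level of the family in both groups. In VSG the levels were 9.05 ± 0.897 CPM per kb for Spsb1, 10.7 ± 2.04 for Spsb2, 6.61 ± 1.23 for Spsb3 and 0.493 ± 0.365 for Spsb4 (SD, n = 5). In SPF they were 5.58 ± 0.761, 10.03 ± 3.86, 7.36 ± 1.63 and 0.563 ± 0.269 CPM per kb in the same gene order (SD, n = 5). Spsb2 was above Spsb1 in 4 of 5 VSG and 5 of 5 SPF libraries, but in VSG their means differed by less than the SD of Spsb2. Spsb1 was above Spsb3 in 5 of 5 VSG libraries and in 1 of 5 SPF libraries. Spsb4 was below Spsb3 in all 10 libraries. The Spsb3 values here, and in the ratios and shares below, may hold reads of Eme2 from the shared exon bases.

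Within a library, ratios of estimated counts do not depend on the scaling between libraries. Spsb1 had 1.81 to 2.83 counts per Spsb2 count in VSG (median 2.43), against 0.801 to 2.10 in SPF (median 1.70). Over Spsb3 the ratio was 1.68 to 2.97 in VSG (median 2.25), against 0.799 to 1.74 in SPF (median 1.36). Over Spsb4 it was 8.90 to 46.4 in VSG (median 32.4), against 5.36 to 17.1 in SPF (median 12.9). All 3 medians were higher in VSG and all 3 ranges overlapped, those over Spsb3 by a single library of each group.

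**Figure D2:**
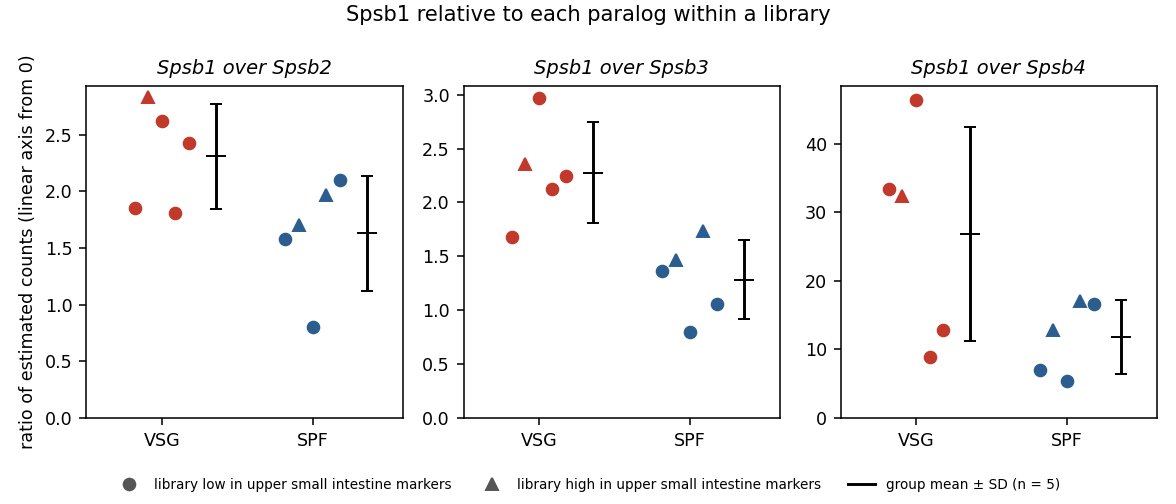
Ratio of the estimated counts of Spsb1 to those of Spsb2, Spsb3 and Spsb4 (linear axes from 0) in each VSG and SPF library, with the group mean ± SD (n = 5) and triangles for the 3 libraries with high upper small intestine markers. The medians are higher in VSG for all 3 paralogs, and over Spsb3 the VSG ratios of 1.68 to 2.97 overlap the SPF ratios of 0.799 to 1.74 by 1 library of each group.

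Spsb1 made up 51.5 ± 5.02% of the counts summed over the family in VSG and 39.3 ± 7.33% in SPF (SD, n = 5 each), with ranges of 46.2 to 57.5% and 27.1 to 46.7%. Spsb3 held 23.1 ± 2.92% in VSG and 31.4 ± 4.54% in SPF. Spsb2 held 22.7 ± 2.64% in VSG and 25.4 ± 5.32% in SPF, and Spsb4 held 2.72 ± 1.81% in VSG and 3.85 ± 1.47% in SPF. The summed level of the 4 genes was 77.7 ± 9.09 CPM in VSG and 63.7 ± 10.8 CPM in SPF, with overlapping ranges of 66.7 to 89.4 CPM and 52.7 to 80.0 CPM. These shares contain the Spsb1 counts that chose the gene and are a description.

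Nos2, whose protein the adaptors target, was also higher in most VSG libraries but was far more variable than Spsb1. Nos2 (ENSMUSG00000020826) was at 281.8, 81.6, 424.6, 273.5 and 210.3 CPM in VSG libraries 1 to 5, against 94.1, 14.2, 150.6, 2.90 and 47.1 CPM in SPF libraries 1 to 5. The groups overlapped, with VSG 2 below SPF 1 and SPF 3, and the lowest Nos2 values of both groups were in VSG 2, SPF 2 and SPF 4. The means were 254.4 ± 124.4 CPM in VSG and 61.8 ± 61.0 CPM in SPF (SD, n = 5 each). The log2 fold change was 2.04 ± 0.82 (SE; 95% interval 0.25 to 3.84), with an edgeR unadjusted p of 0.0294 and an adjusted p of 0.977. Without the 3 libraries it was 1.62 (edgeR adjusted p = 0.633).

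Per Nos2 count, Spsb1 had 0.0959 to 0.452 counts in VSG (median 0.141), against 0.144 to 9.19 in SPF (median 0.450). The highest ratio, 9.19, was in SPF 4, where Nos2 had 52 estimated counts. Per kilobase of exon, Nos2 averaged 57.7 ± 28.2 CPM per kb in VSG and 14.0 ± 13.8 in SPF, and it was above Spsb1 in 5 of 5 VSG and 3 of 5 SPF libraries. The exceptions were SPF 2 and SPF 4.

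Across libraries Spsb1 and Nos2 were not found to move together once the group means were removed. Since Spsb1 separates the groups by choice, no correlation over all libraries pooled is given. With group means removed, Pearson's r of the log2 CPM was -0.49 and Spearman's rho -0.30 (n = 10; exact permutation within groups, two-sided, p = 0.253 and 0.462). Adjusted over the 7 relations computed among these 5 genes, p was 0.636 for r and 0.809 for rho. In SPF, the highest Spsb1 and the lowest Nos2 were in SPF 2 and SPF 4, which both had upper small intestine markers. Without VSG 2, SPF 2 and SPF 4 the r of Spsb1 with Nos2 was -0.07 (n = 7, exact permutation p = 0.840). It was -0.21 without SPF 3 and SPF 5 (n = 8, exact permutation p = 0.703). These 2 were farthest from the median log2 CPM of Spsb1 over both groups pooled. They were the SPF libraries lowest in Spsb1, so leaving them out is not a check for outliers within a group.

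**Figure D3:**
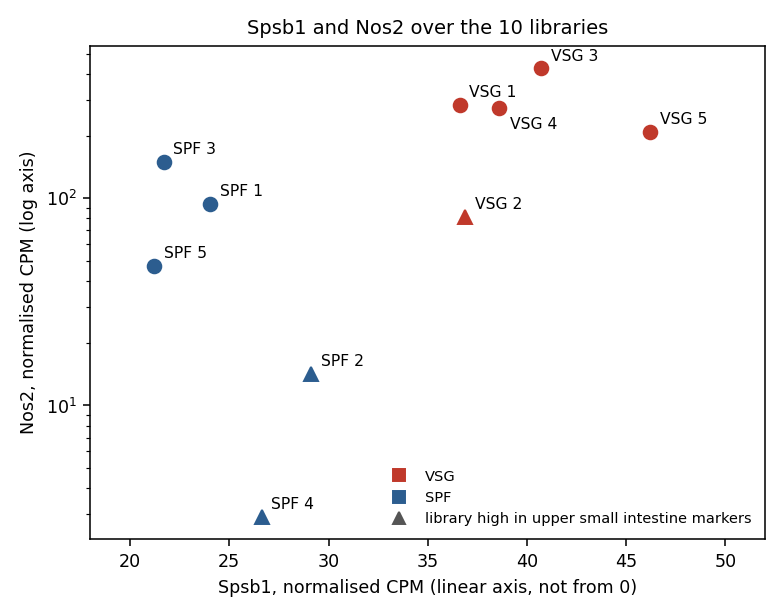
Nos2 (normalised CPM, log axis) against Spsb1 (normalised CPM, linear axis that does not start at 0) in the 10 libraries, with triangles for the 3 libraries with high upper small intestine markers. VSG libraries lie to the right and SPF libraries to the left, and within SPF the 2 triangles have the highest Spsb1 (29.1 and 26.6 CPM) and the lowest Nos2 (14.2 and 2.90 CPM).

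The paralogs gave no clearer relation. With group means removed, r with Nos2 was 0.43 for Spsb2, 0.51 for Spsb3 and 0.34 for Spsb4 (n = 10; exact permutation p = 0.363, 0.174 and 0.280). Without VSG 2, SPF 2 and SPF 4 these values were 0.67, 0.007 and 0.11 (n = 7; exact permutation p = 0.312, 0.979 and 0.792). The r of Spsb2 with Nos2 was 0.085 without SPF 3, that of Spsb3 was 0.237 without SPF 4 and that of Spsb4 was 0.195 without SPF 3. The r of Spsb1 was 0.06 with Spsb2, -0.27 with Spsb3 and 0.18 with Spsb4 (n = 10; exact permutation p = 0.901, 0.493 and 0.605). Without the 3 libraries it was -0.04, -0.23 and 0.43 (n = 7; exact permutation p = 0.938, 0.660 and 0.431). None of the 7 relations passed an adjusted p of 0.05, with all 10 libraries or with the 7. The r of Spsb1 with Spsb2 depended on SPF 3 and SPF 5: it was 0.55 without SPF 3 and -0.32 without SPF 5.

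No gene of the ligase that the SPSB proteins join passed a test. All 10 listed genes of the Elongin, Cullin and RING core and of its ubiquitin-like modifier NEDD8 were tested, 4 higher and 6 lower in VSG, and 0 passed in edgeR, with 0 at an unadjusted p under 0.05 and 0 called by DESeq2 or limma-voom with or without sample weights. Their median log2 fold change was -0.02, beside -0.05 over all genes tested. Cul5, the cullin scaffold of these adaptors, was at 26.4 ± 1.45 CPM in VSG and 26.8 ± 3.89 CPM in SPF (SD, n = 5 each; log2 fold change -0.02 ± 0.12; edgeR adjusted p = 0.994). Rnf7, its RING partner, was at 30.3 ± 2.87 CPM in VSG and 32.5 ± 5.09 CPM in SPF, with a log2 fold change of -0.10. Tceb1 and Tceb2, which encode Elongin C and Elongin B, had log2 fold changes of -0.03 and 0.06. The range over the 10 genes ran from -0.12 for Cul2, the cullin of the VHL ligase, to 0.24 for Ube2f, the NEDD8 conjugating enzyme that acts on Cul5. Without VSG 2, SPF 2 and SPF 4 the list again had 4 genes higher and 6 lower, with a median of -0.04.

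Of 9 listed substrates and partners of SPSB proteins, 8 were found and tested, 5 higher and 3 lower in VSG, and 0 passed in edgeR, DESeq2 or limma-voom with or without sample weights. Their median log2 fold change was 0.09, beside -0.05 over all genes. In edgeR, Nos2 alone had an unadjusted p under 0.05. Limma-voom with sample weights gave one to 3 of the 8, beside 2409 of all 15678 genes tested. Met, the receptor of hepatocyte growth factor, whose signalling SPSB1 is known to raise, was at 56.2 ± 15.0 CPM in VSG and 42.8 ± 7.20 CPM in SPF (SD, n = 5 each; log2 fold change 0.39 ± 0.19; edgeR adjusted p = 0.977). Hnrnpa1, a splicing factor ubiquitinated through SPSB1, was at 69.7 ± 13.0 CPM in VSG and 84.5 ± 6.96 CPM in SPF (log2 fold change -0.28 ± 0.14; edgeR adjusted p = 0.977). Tgfbr2, a TGF-beta receptor that SPSB1 targets, had a log2 fold change of -0.03, and Pawr, a pro-apoptotic protein bound by SPSB1, SPSB2 and SPSB4, one of 0.12. Ephb2 and Nr1d1, reported targets of SPSB4, had log2 fold changes of -0.23 and 0.37, and Snai1, the reported target of SPSB3, one of 0.07. Ranges of the groups overlapped for all 8 genes. Leaving out the 3 libraries gave 4 higher and 4 lower, with a median of 0.02.

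**Figure D4:**
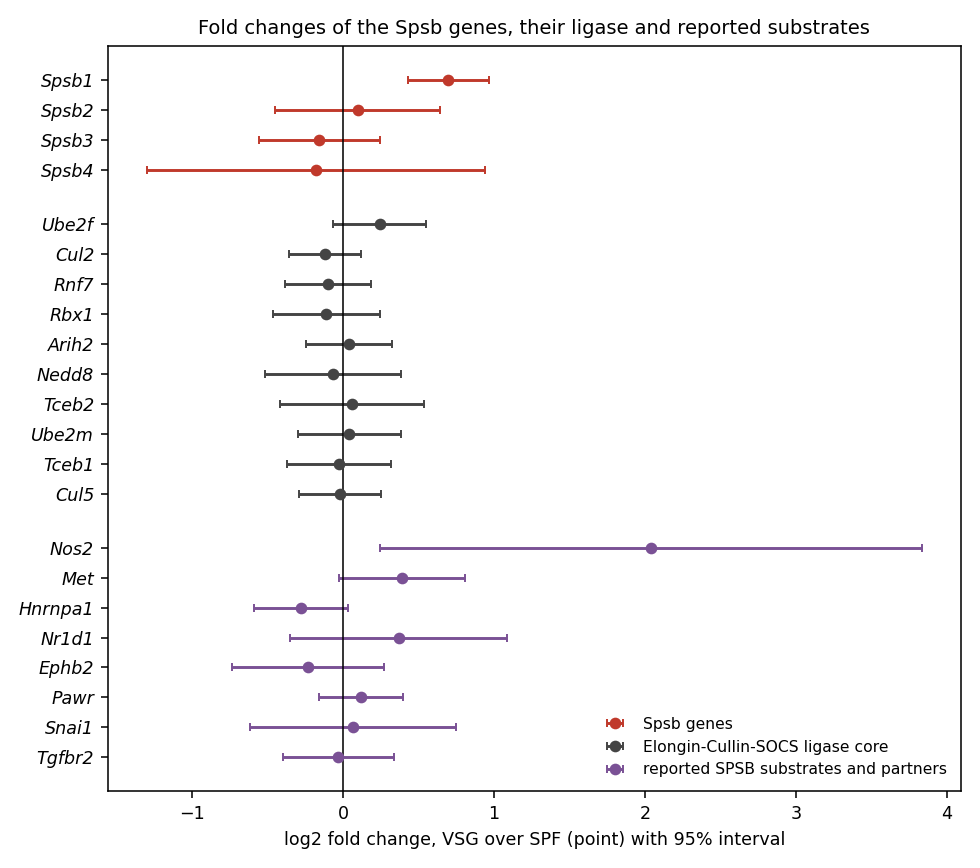
Log2 fold change, VSG over SPF, with its 95% interval from the edgeR fit, for the Spsb genes (red), the ligase core (grey) and reported substrates and partners (purple). Spsb1 stands at 0.70 by choice, its paralogs lie between -0.18 and 0.10, the ligase core lies between -0.12 and 0.24, and Nos2 has the widest interval, 0.25 to 3.84.

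Among 31 other SOCS box adaptors, 21 passed the filter on low counts, 12 higher and 9 lower in VSG, and 3 (Asb12, Asb15 and Asb18) were at 0 in all libraries. None passed in edgeR, DESeq2 or limma-voom with or without sample weights. In edgeR 2 had an unadjusted p under 0.05, beside 3.8% of all genes tested. The median log2 fold change of the 21 was 0.02, beside -0.05 over all genes. Socs3, the feedback inhibitor of STAT3 signalling, was at 101.4 ± 21.0 CPM in VSG and 46.6 ± 21.9 CPM in SPF (SD, n = 5 each; log2 fold change 1.12 ± 0.29; edgeR unadjusted p = 0.00238, adjusted p = 0.977). Its groups overlapped, with 68.3 to 124.6 CPM in VSG and 28.4 to 82.1 CPM in SPF. Wsb1, a WD repeat adaptor, was at 141.1 ± 20.3 CPM in VSG and 113.6 ± 9.70 CPM in SPF (log2 fold change 0.31 ± 0.13; edgeR adjusted p = 0.977). Without the 3 libraries 22 passed the filter, 13 higher and 9 lower, with a median of 0.04, and the log2 fold change was 1.42 for Socs3 and 0.46 for Wsb1.

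Genes around the nitric oxide step gave 19 tested members, 8 higher and 11 lower in VSG. In edgeR 0 passed and 3 had an unadjusted p under 0.05, beside 3.8% of all genes tested. The median log2 fold change of the 19 was -0.03, beside -0.05 over all genes. Apart from Nos2 the 3 were Gch1, which makes the synthase cofactor tetrahydrobiopterin, and Slc7a2, an arginine transporter. Gch1 was at 42.6 ± 10.1 CPM in VSG and 28.8 ± 9.25 CPM in SPF (SD, n = 5 each; log2 fold change 0.57 ± 0.24; edgeR adjusted p = 0.977). Slc7a2 was at 3.26 ± 0.416 CPM in VSG and 4.95 ± 1.66 CPM in SPF (log2 fold change -0.60 ± 0.27; edgeR adjusted p = 0.977). With VSG 2, SPF 2 and SPF 4 left out, 8 genes were again higher and 11 lower, with a median of -0.05. The log2 fold change was then 0.96 for Gch1 and -0.45 for Slc7a2. In that edgeR fit 4 of the 19 had an unadjusted p under 0.05, beside 1107 of all 15911 genes tested. With all libraries, limma-voom with sample weights gave one to 7 of the 19, beside 2409 of all 15678 genes tested.

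Spsb1 is known from other work as a gene induced through NF-kB and through TGF-beta. Of 18 listed NF-kB feedback and target genes 16 were tested, 12 higher and 4 lower in VSG, with a median log2 fold change of 0.16, beside -0.05 over all genes, where 41.9% of tested genes were higher in VSG. None passed in edgeR and 1, Birc3, an inhibitor of apoptosis, had an unadjusted p under 0.05. Birc3 was at 49.2 to 70.0 CPM in VSG and 37.4 to 49.0 CPM in SPF, with no overlap, beside 0.255% of all genes (log2 fold change 0.40 ± 0.13; edgeR unadjusted p = 0.00784, adjusted p = 0.977). Of 14 TGF-beta targets tested, 6 were higher and 8 lower in VSG, with a median of -0.02 and 0 at an unadjusted p under 0.05. Pmepa1, a feedback inhibitor of TGF-beta signalling and the listed target of lowest p, had a log2 fold change of 0.30 (edgeR adjusted p = 0.977). Without the 3 libraries the median was 0.10 for the NF-kB genes, with 11 higher and 5 lower. It was -0.13 for the TGF-beta targets, with 6 higher and 8 lower. In that edgeR fit 2 NF-kB genes and 3 TGF-beta targets had an unadjusted p under 0.05, beside 1107 of all 15911 genes tested. Over all 10 libraries with group means removed, Spsb1 had an r of -0.37 with the log2 summed level of the listed NF-kB genes. With that of the TGF-beta targets its r was -0.46. These 2 relations were not tested.

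Epithelial defence genes that microbes induce, the setting in which Nos2 is known in gut epithelium, gave 11 tested of 13 listed, 8 higher and 3 lower in VSG. The median log2 fold change was 0.85, beside -0.05 over all genes. None passed in edgeR and 1, Reg3g, an antibacterial lectin gene, had an unadjusted p under 0.05. Reg3g was at 1498 to 5008 CPM in VSG and 187.5 to 2429 CPM in SPF (log2 fold change 1.49 ± 0.57; edgeR adjusted p = 0.977). Without VSG 2, SPF 2 and SPF 4 the median of the list was 0.37, with 6 genes higher and 5 lower in VSG. In that edgeR fit 4 of the 11 had an unadjusted p under 0.05, beside 1107 of all 15911 genes tested. For the nitric oxide, NF-kB, TGF-beta and defence genes too, DESeq2 and limma-voom with or without sample weights called 0.

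Sums of cell type markers overlapped between the groups for every list. The 6 epithelial markers summed to 14093 to 18245 CPM in VSG and 10665 to 21732 CPM in SPF. All 8 smooth muscle markers were lower in VSG, with sums of 758.9 to 1598 CPM in VSG and 309.4 to 3829 CPM in SPF. All 7 fibroblast, 8 T cell, 5 endothelial and 5 red blood cell markers were lower in VSG in the edgeR fit. Their sums were 314.1 to 479.7 CPM in VSG and 256.5 to 610.5 CPM in SPF for fibroblasts, and 17.0 to 65.4 CPM in VSG and 27.7 to 72.5 CPM in SPF for T cells. They were 55.3 to 115.0 CPM in VSG and 36.9 to 111.0 CPM in SPF for endothelium, and 36.3 to 136.7 CPM in VSG and 75.3 to 173.0 CPM in SPF for red blood cells. Of 8 macrophage and neutrophil markers tested, 3 were higher and 5 lower in VSG, with sums of 200.6 to 725.8 CPM in VSG and 200.001 to 795.4 CPM in SPF. No marker of these lists was called by edgeR, DESeq2 or limma-voom with or without sample weights, and in edgeR 1, of the macrophage and neutrophil list, had an unadjusted p under 0.05. Limma-voom with sample weights gave an unadjusted p under 0.05 to 3 of 6 epithelial, 5 of 7 fibroblast and 4 of 5 endothelial markers. It gave one to 2409 of all 15678 genes tested. Without VSG 2, SPF 2 and SPF 4 all 7 fibroblast, 8 T cell and 5 red blood cell markers were again lower in VSG. The T cell median log2 fold change was then -0.92, beside -0.48 with all libraries. Of the other lists, 4 epithelial, 1 smooth muscle, 1 endothelial and 2 macrophage and neutrophil markers were then higher and the rest lower. The part of these cell types in the Spsb1 values was not tested.

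The genes whose pattern over libraries was most like that of Spsb1 were Agfg1, Dnajb4, Tmem167b, Tmem20 and Chd3. Likeness was Pearson's r of log2 CPM with group means removed, over 10 libraries and among 11012 genes that averaged 5 CPM or more, so it did not use the difference between the groups. The values of r were 0.94, 0.92, 0.90, 0.90 and 0.89, and without the 3 libraries that stood apart 0.86, 0.86, 0.76, 0.90 and 0.82. Of all these genes 0.654% had an r above 0.8, and all genes of a library share its depth and scaling. Agfg1 was at 69.5 ± 6.43 CPM in VSG and 61.5 ± 10.98 CPM in SPF (SD, n = 5 each; log2 fold change 0.17 ± 0.14; edgeR adjusted p = 0.977). Dnajb4 was at 18.9 ± 3.70 CPM in VSG and 19.5 ± 5.12 CPM in SPF (log2 fold change -0.05 ± 0.20; edgeR adjusted p = 0.993). These levels overlapped between the groups. In the same ranking Spsb2 was 4825th, Spsb3 7682nd and Nos2 9589th of 11012.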

How the data were processed

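TruSeq libraries of ileal RNA were read by single-end sequencing of 50 bases, per the labels. The authors deposited 2 kinds of value for each of 10 libraries. The first is an estimated count per gene as the authors deposited it, not normalised. Of these values 61.18% are whole, and they are not RPKM, although the file names use that word. The second is a deposited log2 value, normalised and centred by the authors on the SPF median of each gene. DESeq and mm9 are named per the submitters' processing notes; the aligner and counting program are not given in the sources used here.

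Estimated counts were rounded to whole numbers, filtered with filterByExpr (15678 of 36401 genes kept, all 4 Spsb genes among them), scaled by TMM and tested with edgeR 4.0.16 in R 4.3.3 (quasi-likelihood, group only, Benjamini-Hochberg over all genes tested, threshold 0.05). CPM are TMM-normalised. Log2 CPM for correlations used a prior count of 2, and correlations used 14400 exact permutations within groups. Levels per kilobase used exon lengths of a GRCm38 annotation, a build other than mm9. Intervals cover 95%. The script was tested on simulated counts, where edgeR recovered 32.3% of planted 2-fold and 89.8% of planted 4-fold changes. A gene that did not pass can therefore still differ between the groups. DESeq2 1.42.0 and limma 3.58.1, other scalings, filters and sets of libraries were alternatives. Spsb4 had the lowest counts of the members.

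The members and all gene lists (194 of 197 listed genes were found by symbol) were chosen with earlier results of these data known. Named genes were the members, Nos2, the ligase and substrate lists, up to 4 genes of lowest p in each other list, and the 5 genes most like Spsb1. Gata4, Fabp6 and the other upper small intestine markers fall outside this rule and were named after their values were seen. Protein sequences were not used here.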

Additional observations from a re-analysis of the deposited data

Results flagged for a closer look

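Of 62 groups of 5 libraries examined for a single library far from the others, 5 held one, and chance gives about 1 in 20. For genes of the ligase core, Rnf7 was at 35.4 CPM in VSG 1, with the next VSG library at 29.9 CPM, and Rbx1 was at 68.2 CPM in SPF 3, with the next SPF library at 46.7 CPM. The substrate gene Met was at 30.4 CPM in SPF 3, below the next SPF library at 43.9 CPM. The SOCS box gene Cish was at 77.6 CPM in SPF 5, with the next SPF library at 23.0 CPM, and its log2 fold change was -0.92 with SPF 5 and -0.18 without it. The defence gene Saa1 was at 40.9 CPM in SPF 3, with the next SPF library at 10.98 CPM. No library of the 4 Spsb genes or of Nos2 stood out in this way.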

How the results depend on the processing

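Spsb1, at 0.63 (library totals) to 0.86 (without VSG 2, SPF 2 and SPF 4), Spsb3 and Nos2 kept their direction under every alternative run. Spsb2 was 0.45 under limma-voom with sample weights (adjusted p = 0.309). DESeq2 called 11 genes and limma-voom with sample weights 1, against 0. Reversed under sample weights were Spsb4 (0.14) and Rbx1 (0.068); the r of Spsb1 reversed with Spsb2 for library totals (-0.436), the linear scale (-0.019) and without the 3 libraries (-0.041), with Spsb4 for library totals (-0.029) and with Spsb3 without the 2 farthest libraries (0.186). The causes were not tested. Unadjusted p under 0.05 numbered 595, with 295 higher in VSG, 647 (197 higher) under upper quartile factors, 569 (183 higher) under library totals, 1940 without SPF 3, 1135 without VSG 2, 1107 without the 3 libraries and 2409 with sample weights.

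Leaving out each library in turn gave 0.64 to 0.77 for Spsb1, -0.038 to 0.35 for Spsb2, -0.23 to -0.01 for Spsb3, -0.58 to 0.063 for Spsb4, 1.73 to 2.68 for Nos2 and -0.18 to 0.064 for Rbx1, with no gene called. The r of Spsb1 was -0.622 to -0.361 with Nos2, -0.317 to 0.55 with Spsb2 and -0.061 to 0.375 with Spsb4, and that of Nos2 was 0.085 to 0.649 with Spsb2, 0.237 to 0.726 with Spsb3 and 0.195 to 0.49 with Spsb4. With the replicate number as a block, Spsb1 was 0.70, Spsb2 0.15, Spsb3 -0.15, Spsb4 -0.37 and Nos2 2.58, with 0 genes called. Same-numbered libraries deviated together, at r over 0.1, for 1 of 5 numbers. No label says that the numbers pair the samples, and these correlations cannot settle it, since other differences between libraries also enter them. With the block the r of Spsb4 with Nos2 was 0.67, which rests only on the differences between the 5 pairs of same-numbered libraries. No p-value is given for it, since permuting libraries within groups breaks these pairs. Counts of 13 to 128.8 a library limit the precision of Spsb4.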
